A study of Mus musculus with 4 samples.

Results

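The 14-3-3 protein genes were examined as targets of IMP2, the RNA-binding protein encoded by Igf2bp2, in embryonic mouse brain. The members were the rows of the deposited cluster list whose gene symbol began with Ywha or was Sfn, reduced to distinct clusters. This gave 26 of the 1828 clusters (1.42%) and 4 of the 761 listed genes: Ywhag, Ywhae, Ywhaz and Ywhab. The other 3 of the 7 genes of the family, Ywhah, Ywhaq and Sfn, had no cluster in the list.

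RNA bound to IMP2 was isolated by HITS-CLIP, in which ultraviolet light joins a protein to the RNA it touches before immunoprecipitation and sequencing. The tissue was brain of Swiss Webster embryos at day 14 of gestation (E14), with no transgene, deletion or treatment named in the labels. The 4 libraries (2 titled IMP2_R and 2 titled IMP2_M) are represented by a single list, so the values below carry no replicate error, the R and M libraries were not compared, and no test between genes was made. A cluster is a stretch of overlapping sequence tags, and its height is read here as the largest number of tags that overlap in it.

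The 14-3-3 proteins are small acidic adaptors that work as dimers. They bind client proteins at phosphorylated serine or threonine sites and change the activity, partners or location of the client. They are abundant in brain, where Ywhae (14-3-3 epsilon) is known for its part in neuronal migration through the dynein regulator NDEL1, and 14-3-3 proteins act in growth cone turning. The isoforms have closely related protein sequences encoded by separate genes.

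Over the list as a whole, clusters had a median height of 30 (full range 18 to 107), a median width of 53 bases and a median deposited fold of 5.4. The fold is the authors' second score, read here from its column name as a ratio of the height to some reference level; the header defines neither score. Tag totals per library were not analysed here, and the depth is therefore unknown. Of 6 neuronal marker genes checked against the tissue label, 5 were listed (all but Tubb3), with Dcx at 34 clusters. Of 6 progenitor markers 1 was listed (Vim, height 27), and of 4 erythroid markers 3 were (Hba-a1, Hba-a2 and Hbb-y, highest height 27). Hba-a1 and Hba-a2 shared the same cluster (height 27, fold 6.39), so they are not separate erythroid signals. None of 4 glial, 4 microglial, 3 endothelial and 3 stratified epithelial markers was listed, but these panels are short. Genes outside the panels that are also expressed in astroglia or vessels were listed, such as Slc1a2 (6 clusters), Gja1 (3), Slc2a1 (2) and Rgs5 (2). A list of bound RNA does not show which cells were present or absent. The part of transcript abundance in any cluster count or height was not tested, since no input RNA was analysed here.

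IMP2 clusters lay on 4 of the 7 14-3-3 genes (57.1%, exact Clopper-Pearson 95% interval 18.4 to 90.1, counting error only), beside 3.47% of the 21900 protein-coding genes. This family and the gene lists below were chosen with earlier results of these data known. Their shares and intervals are therefore descriptions, and enrichment was not tested. Each of the 4 listed 14-3-3 genes had at least 5 clusters, as did 12.2% of all listed genes. All 26 clusters lay wholly within the deposited 3' UTR intervals, beside 94.1% of all clusters in a 3' UTR by their midpoint. Together they covered 2775 of 8103 bases of 3' UTR, or 34.2%. The median of single listed genes was 4.70% of the 3' UTR, but the median number of clusters of a listed gene was only 1.

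Ywhag, which encodes 14-3-3 gamma, carried the most clusters of the family. Its 3' UTR (transcript NM_018871) spans 2616 bases on chromosome 5, minus strand, at 136384249 to 136386864 (mm9, as are all coordinates here). Its 10 clusters had heights, in order along the 3' UTR from the stop codon, of 26, 55, 73, 37, 39, 41, 38, 57, 32 and 46. Thus 9 of the 10 were taller than the list median, and the lowest was the cluster nearest the stop codon. The highest lay at 136385907 to 136385958, 907 to 958 bases into the 3' UTR, with a fold of 9.54, and only 39 clusters of the whole list were taller. It was also the narrowest of the gene, at 52 bases against 211 for the widest.

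The clusters of Ywhag covered 1099 bases (42.0%) of its 3' UTR. Only 18 listed genes had more clusters, and 25 of the 729 genes with a 3' UTR cluster had a larger covered share. The clusters were densest near the 3' end: of 3 parts of equal length, the last held 6 of them and was 67.2% covered, against 35.1% of the first part and 23.7% of the middle part. The last cluster ended 46 bases before the transcript end, while the first 325 bases after the stop codon were free of clusters. The longest stretch between neighbouring clusters, 376 bases, followed the highest cluster.

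Ywhae, which encodes 14-3-3 epsilon, had the tallest cluster of the family and the largest covered share. Its 3' UTR (NM_009536) is the shortest of the 4, with 1169 bases on chromosome 11, plus strand, at 75578175 to 75579343. Heights from the stop codon onward were 37, 54, 49, 68 and 75. All 5 exceeded the list median, and the tallest was the one farthest from the stop codon, at 75578857 to 75579061 with a fold of 9.39. Of all listed genes, 13 had a higher median height than its 54, and 22 had a higher tallest cluster.

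Clusters of Ywhae covered 592 bases, or 50.6% of the 3' UTR, a share exceeded by 15 of the 729 genes. Unlike Ywhag, the gene had a cluster close to the stop codon, beginning 28 bases into the 3' UTR, and its last 282 bases held none. The first of 3 equal parts was 66.0% covered, the middle part 58.3% and the last part 27.6%. The last 3 clusters lay close together: those of heights 49, 68 and 75 were separated by 9 and 13 bases. Joined at gaps of up to 50 bases they made a single stretch of 357 bases, which reduced the gene from 5 clusters to 3.

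Ywhaz, which encodes 14-3-3 zeta, carried its clusters away from the stop codon. Its 3' UTR (NM_011740) has 2456 bases on chromosome 15, minus strand, at 36700017 to 36702472. The heights along it were 30, 33, 27, 40 and 52. Of these 5, 3 exceeded the list median, and the highest (36700532 to 36700617, fold 6.46) was again the one farthest from the stop codon. The first 1007 bases of the 3' UTR and the last 515 held no cluster.

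The covered part of Ywhaz made up 699 bases, or 28.5% of the 3' UTR. All of it lay between bases 1008 and 1941. The last 4 clusters were separated by 11, 32 and 50 bases, and joining them left 2 clusters in place of 5, the larger a stretch of 661 bases. Clusters of this gene were also the widest of the family, with a median width of 131 bases and a maximum of 238.

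Ywhab, which encodes 14-3-3 beta, had the lowest clusters of the listed members. Its 3' UTR (NM_018753) has 1862 bases on chromosome 2, plus strand, at 163842462 to 163844323. Its 6 clusters had heights of 30, 19, 41, 31, 34 and 25 in order from the stop codon. Thus 3 of them exceeded the list median, and that of height 19 was among the lowest of the list, with 1735 of the 1828 clusters above it. The highest (163843654 to 163843807, fold 4.90) was also the widest, at 154 bases.

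Clusters of Ywhab covered 385 bases, or 20.7% of the 3' UTR, the smallest share of the 4 members but still above that of all but 77 of the 729 genes. As in Ywhag, the last of 3 equal parts held most of them, with 4 of 6 clusters and 39.6% of its bases covered, against 9.51% of the first part and 12.9% of the middle part. The clusters were spaced more widely than in Ywhae and Ywhaz, with a median gap of 117 bases against 43 and 41. The longest gap, 548 bases, lay between the first and the second cluster.

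**Figure D1:**
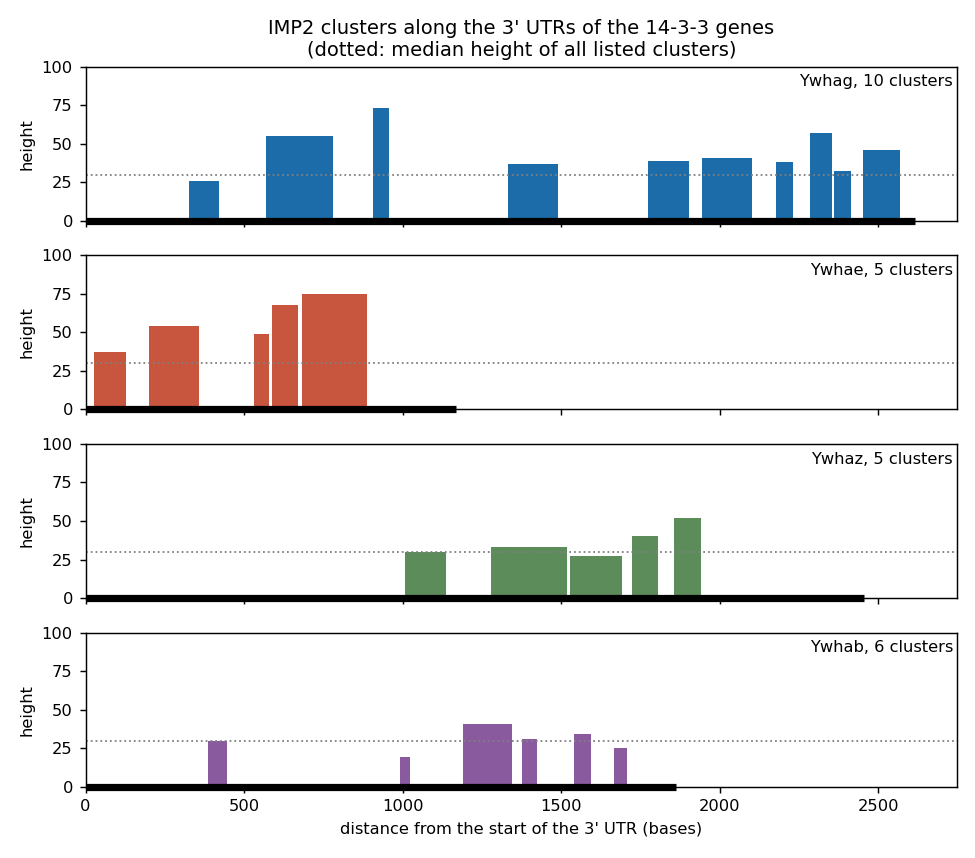
IMP2 clusters along the 3' UTRs of Ywhag, Ywhae, Ywhaz and Ywhab, with the distance from the start of the 3' UTR in bases on the horizontal axis and cluster height in tags on the vertical axis. Each bar is 1 cluster at its true width, the black line is the 3' UTR, and the dotted line marks the list median of 30; Ywhaz has no bar in its first 1007 bases, and the tallest bars of Ywhae and Ywhaz are the last ones.

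Set side by side, the order of the members depended on the measure. By tallest cluster it was Ywhae (75), Ywhag (73), Ywhaz (52) and Ywhab (41), while the authors' fold put Ywhag (9.54) ahead of Ywhae (9.39). By number it was Ywhag (10), Ywhab (6), and Ywhae and Ywhaz with 5 each. By covered share it was Ywhae, Ywhag, Ywhaz and Ywhab. Clusters per 1000 bases of 3' UTR were 4.28 in Ywhae, 3.82 in Ywhag, 3.22 in Ywhab and 2.04 in Ywhaz. The median over listed genes, whose median number of clusters was 1, was 0.861.

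The heights of any 2 members overlapped. Mean height was 56.6 ± 15.1 in Ywhae (SD over 5 clusters), 44.4 ± 13.8 in Ywhag (10 clusters), 36.4 ± 9.96 in Ywhaz (5 clusters) and 30.0 ± 7.54 in Ywhab (6 clusters). These SDs describe the clusters of a gene and are not replicate error. The widest separation was between Ywhae and Ywhab, where 4 of the 5 Ywhae clusters were taller than every Ywhab cluster and 5 of the 6 Ywhab clusters were lower than every Ywhae cluster. Neighbours in the order were closer: 1 of 5 Ywhae clusters was taller than every Ywhag cluster, 3 of 10 Ywhag clusters were taller than every Ywhaz cluster, and 1 of 5 Ywhaz clusters was taller than every Ywhab cluster.

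Most family clusters lay beyond the middle of the 3' UTR, toward the transcript end. The midpoints of 18 of 26 clusters (69.2%) did, beside 47.8% of the 1717 clusters of the list that could be placed in this way. The split was 7 of 10 in Ywhag, 5 of 6 in Ywhab and 4 of 5 in Ywhaz, but 2 of 5 in Ywhae.

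The clusters of the family were tall and wide for the list, but their folds were not high. Of the 26, 20 (76.9%) were taller than the median height, beside 46.9% of all clusters, whereas 12 (46.2%) had a fold above the median, beside 49.9%. The median height of the 26 was 38.5, the median width 90.5 bases and the median fold 5.06. If the fold is height over a reference level, dividing height by fold gives that level, and this implied denominator was 7.65 at the median of the family (range 5.09 to 8.91) against 5.96 over the list. It was above the list median in 24 of the 26 clusters, beside 50% of all clusters. That 50% is over clusters of every height, and clusters of equal height were not compared. The 89 other genes with at least 5 clusters had a median denominator of 6.85. Of their 744 clusters, 56.7% were taller than the list median height and 45.3% had a fold above the list median. The median width of these 744 clusters was 63.5 bases and their median height was 33.

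**Figure D2:**
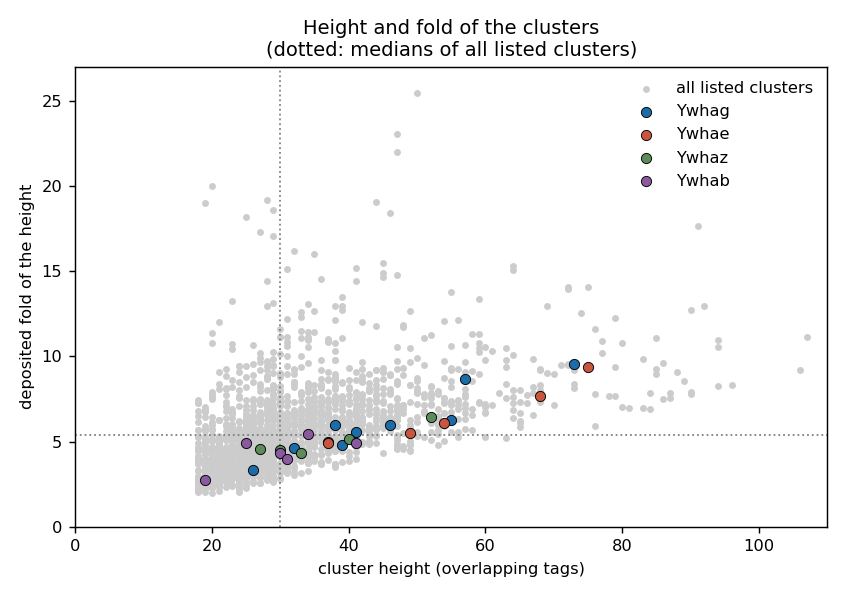
Deposited fold of the height against cluster height in tags for all 1828 clusters (grey) and the 26 clusters of the 14-3-3 genes (coloured by gene), with dotted lines at the list medians of 30 and 5.4. Of the 26 coloured clusters, 20 lie right of the median height and 12 above the median fold.

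Genes of the family without a cluster were Ywhah (14-3-3 eta), Ywhaq (14-3-3 theta) and Sfn (14-3-3 sigma, mainly an epithelial isoform). Neither their symbols nor their RefSeq accessions (NM_011738, NM_011739 and NM_018754) occurred on any of the 2865 lines. The lowest height in the list was 18 and the lowest fold 2, but the limits that a cluster had to pass are not stated. A missing gene is therefore only one without a cluster in this list. The RefSeq table of GRCm38 names 3 pseudogenes after Ywhaq, but 0 after Ywhah and 0 after Sfn. It also names 0 after each of the listed genes Ywhab, Ywhae, Ywhag and Ywhaz. Pseudogenes under other names were not counted. How tags that match several places in the genome were treated is not stated in the labels or the header, and its part in these absences was not tested.

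**Figure D3:**
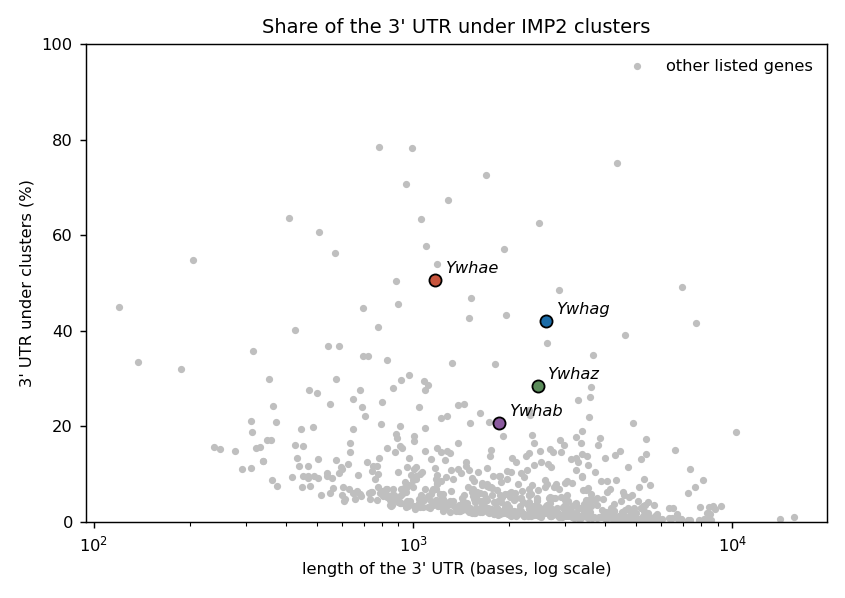
Percent of the 3' UTR under IMP2 clusters against the length of the 3' UTR in bases (log scale) for the 729 genes with a 3' UTR cluster, with the 4 listed 14-3-3 genes in colour. Ywhae (50.6%), Ywhag (42.0%), Ywhaz (28.5%) and Ywhab (20.7%) all lie above the median of these genes, 4.70%.

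Partners of the 14-3-3 proteins were listed to different extents. Of 46 client proteins, 4 were listed (8.70%, exact 95% interval 2.42 to 20.8, beside 3.47% of all protein-coding genes): Ctnnb1, Cfl1, Nedd4l and Mapt. Ctnnb1, which encodes beta-catenin, had 6 clusters with a maximum height of 86 that covered 78.2% of its 3' UTR. The actin-severing cofilin gene Cfl1 had 1 cluster of height 36, the ubiquitin ligase gene Nedd4l 3 with a maximum of 29, and the tau gene Mapt 2 with a maximum of 20. Clients known for binding 14-3-3 in neurons or in growth signalling, such as Ndel1, Bad and Foxo3, had no cluster.

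Catalytic subunits of the phosphatases that remove such phosphates were listed in 4 of 8 cases (50%, exact 95% interval 15.7 to 84.3), beside the same 3.47%. Ppp1cb, a catalytic subunit of protein phosphatase 1, had 7 clusters with a maximum height of 31 over 12.2% of its 3' UTR. Ppp2ca, of protein phosphatase 2A, had 4 with a maximum of 40 over 40.9%. Its paralogue Ppp2cb and the calcineurin gene Ppp3cb had 1 each, of heights 19 and 26. None of these 4 had a cluster as tall as the highest of Ywhab (41), the lowest-ranking listed 14-3-3 gene. With at least 2 clusters required, or only clusters taller than the list median, 2 of the 8 phosphatase genes remained, while all 4 14-3-3 genes remained under both rules, which 1.56% and 1.87% of protein-coding genes met.

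Other multigene families of the nervous system also had listed and unlisted members. Collapsin response mediators, which bind tubulin in axons, were listed in 3 of 5 cases (60%, exact 95% interval 14.7 to 94.7), beside 3.47% of all protein-coding genes: Dpysl2 with 10 clusters, a maximum of 96 and 62.6% of the 3' UTR covered, Dpysl5 with 3 clusters (41) and Crmp1 with 2 (20). Of 4 stathmin genes, regulators of microtubule stability, 1 was listed (25%, exact 95% interval 0.631 to 80.6): Stmn2, with 6 clusters and a maximum of 85. The member with the most clusters thus had 10 in the 14-3-3 family and also in the collapsin response mediators. The listed member with the fewest had 5 clusters in the 14-3-3 family and 2 in the collapsin response mediators. These differences between families were not tested, because genes are not replicates.

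**Figure D4:**
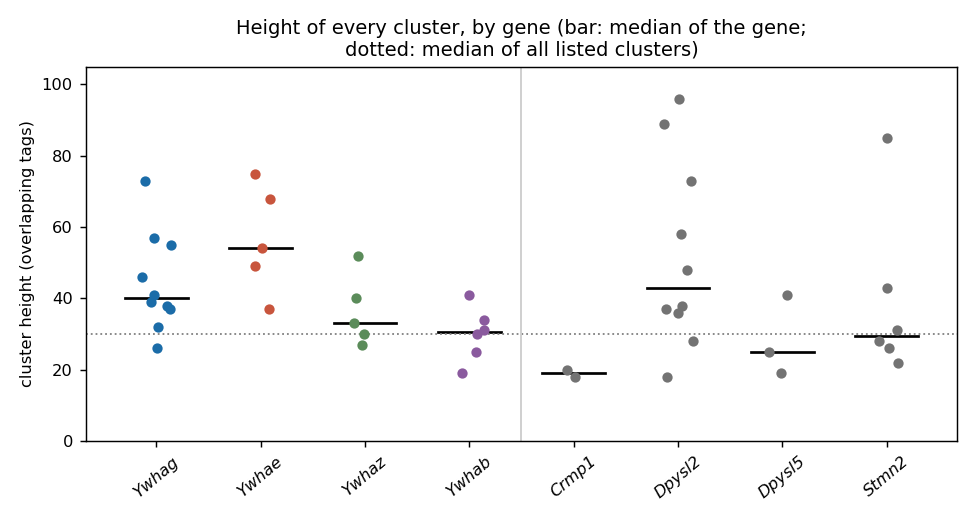
Height in tags of every cluster of the 4 listed 14-3-3 genes (colours) and of the listed collapsin response mediator and stathmin genes (grey), with a bar at the median of each gene and a dotted line at the list median of 30. The medians of Ywhae (54), Ywhag (40), Ywhaz (33) and Ywhab (30.5) all lie above the dotted line, and the heights of the 4 genes overlap.

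The genes most like Ywhag in number of clusters, tallest cluster and covered share were sought among the 729 genes with a 3' UTR cluster. Likeness was the sum of the absolute differences in percentile rank over these 3 measures of the single list, so smaller is closer. The nearest were Marcks (2.61 percentile points), Cd24a (2.67), Gpm6a (3.43), Ccnd2 (3.70) and Hnrnpa0 (3.77). Marcks, which links membranes to actin, had 11 clusters, a tallest cluster of 79 and 48.5% of its 3' UTR covered. Cd24a, a surface glycoprotein of immature neurons, had 10, 92 and 42.7% for these measures. Gpm6a, a neuronal membrane proteolipid gene, had 9 clusters, a tallest of 64 and 43.4% covered. The cyclin gene Ccnd2 had 17 clusters on a longer 3' UTR (4626 bases), a tallest of 77 and 39.2% covered, and the RNA-binding protein gene Hnrnpa0 had 8, a tallest of 80 and 46.8%. Among the other family members Ywhae ranked 20 in likeness (9.81), Ywhaz 40 (19.9) and Ywhab 74 (34.4).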

How the data were processed

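HITS-CLIP of IMP2 was made from E14 mouse brain in 4 libraries. Per the submitters' processing notes, tools used were Bowtie and FastQC, with mm9 as the build and no version stated; neither the notes nor the header names a peak caller or its thresholds. The deposited list holds, per the file headers, a cluster height (a signal value in whole numbers) and what is read as a fold of that height (a ratio), both the authors' own values, annotated to RefSeq transcripts; a further column gives the bases shared with the annotated region. No column belongs to a single library.

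Here, 2865 lines were reduced to 1828 distinct clusters and starts were made 1-based. Of 1099 transcripts, 1088 were matched by accession to RefSeq symbols of GRCm38.p6 and the rest by name; no coordinate came from that table. Region was set by the midpoint, and coverage is the union of clusters over the longest deposited 3' UTR interval, taken to begin after the stop codon. Named genes were all 14-3-3 genes, each listed member of the partner and comparison lists, and the 5 genes most like Ywhag. Some results are not reported here. Scripts used Python 3.11.15, pandas 2.3.3 and scipy 1.17.1 and were tested on simulated lists. The members and lists were chosen with earlier results of these data known. No test was run; alternatives are given in the closing section.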

Additional observations from a re-analysis of the deposited data

How the results depend on the processing

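The 4 listed 14-3-3 genes remained listed with at least 2 clusters or only with clusters taller than the list median. Joining clusters at most 50 bases apart left 3 in Ywhae, 2 in Ywhaz, 7 in Ywhag and 5 in Ywhab. Clusters taller than the median numbered 3 in Ywhab, 3 in Ywhaz, 9 in Ywhag and 5 in Ywhae. They covered 13.7% of the 3' UTR in Ywhab, 16.5% in Ywhaz, 38.4% in Ywhag and an unchanged 50.6% in Ywhae. Clusters with a fold above the median numbered 1 in Ywhab, 1 in Ywhaz, 6 in Ywhag and 4 in Ywhae. The median cluster in place of the tallest gave 54 for Ywhae, 40 for Ywhag, 33 for Ywhaz and 30.5 for Ywhab, the same order. Fold in place of height exchanged the first and second rank, Ywhag over Ywhae. The shortest deposited 3' UTR interval was also the longest for all 4 genes. Of the 46 clients, 2 were listed with taller clusters alone and 3 with at least 2 clusters. Of the 8 phosphatase genes, 2 were listed under each of these rules. The same rules were met by 1.87% and 1.56% of protein-coding genes. The median cluster, the ranks by fold and the shortest interval use every cluster. By construction, the other alternatives can only keep or lower a count or covered share. No paired analysis was possible because no column of the list belongs to a single library, and for the same reason no library could be left out.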
